A study of Homo sapiens with 6 samples.

Results

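Immune checkpoint ligands are the proteins through which a cell restrains T cells and natural killer (NK) cells. CD274 encodes PD-L1 and PDCD1LG2 encodes PD-L2, the ligands of the T cell receptor PD-1, and interferon gamma raises both through JAK kinases and IRF1 in many cell types. CD276 (B7-H3), VTCN1 (B7-H4) and CD80 (B7-1) belong to the same B7 family, PVR (CD155) and PVRL2 (nectin-2, now NECTIN2) are bound by TIGIT and other receptors of lymphocytes, LGALS9 encodes galectin-9, and IDO1 encodes an enzyme that depletes tryptophan and produces kynurenine. In bladder cancer, antibodies against PD-1 or PD-L1 are in clinical use.

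The transcripts of these 9 genes were followed in the established human line J82, which derives from bladder cancer, and their counts were compared between cells with a FOXC1 knockout (KO) and control cells. The 9 genes were chosen by name as checkpoint ligands that tumour cells can carry, and they are 9 of the 57820 genes in the table. All 9 were found in it, and 7 passed the filter on low counts, against 15647 genes in all. CD80 and VTCN1 did not pass. The 9 genes, like the lists of related genes below, were chosen with earlier results of these data known. The shares called among them are therefore descriptions.

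RNA-seq of polyadenylated transcripts was available for 3 libraries of control J82 cells and 3 libraries of J82 cells labelled FOXC1 KO. FOXC1 is a transcription factor of the forkhead family. KO cells, per the study's methods, carried a lentiviral CRISPR/Cas9 vector (lentiCRISPR v2) with a guide against FOXC1 and were selected with puromycin, and control cells carried a vector as well. No drug treatment is given for either group, and the cells grew in DMEM with serum. Whether the 3 KO libraries came from 1 clone, and whether the libraries of a group came from separate cultures, is not given in the sources used here, so p-values measure only the spread between these libraries.

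Library totals ranged from 18408134 counts in KO replicate 1 to 25350908 in KO replicate 2, and the control libraries lay between them. FOXC1 transcript itself was not lower in the libraries labelled KO (413, 412 and 490 counts in control, 443, 560 and 497 in KO, replicates 1 to 3), with a log2 fold change of 0.30 (SE 0.091, edgeR adjusted p 0.0127). The study checked its KO clones for less FOXC1 protein by Western blotting, per its methods, and protein is not in these files. The transcript level does not check the labels, and every direction below is between the libraries labelled FOXC1 KO and the control libraries. The epithelial keratins KRT7, KRT8, KRT18 and KRT19 were abundant, whereas the uroplakins UPK1A, UPK1B, UPK2 and UPK3A, which define differentiated urothelium, were at 0 to 5 counts per library, as was CDH1 (0 to 3). Of 14 leukocyte markers, 9 were at or under 3 counts in every library, the floor used here, and CD3D, CD3E, CD2 and MS4A1 were among those at 0 throughout. The summed leukocyte markers were 5.08 to 5.66 CPM (counts scaled to the library total) in control and 6.70 to 7.73 CPM in KO libraries, of which CD14 made up most, and their part in the results below was not tested.

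The 2 sequences below are shown because they lie before the start of called members on opposite sides of the comparison, CD274 (higher in KO) and LGALS9 (lower in KO). IDO1, the called member that fell most, was not looked up, so the 2 sequences do not stand for all called members. Each is the 250 bases before the RefSeq gene start in GRCh38.p14 on the plus strand, at chr9:5450292-5450541 and chr17:27630938-27631187. Capitals mark matches to the motifs searched.
CD274: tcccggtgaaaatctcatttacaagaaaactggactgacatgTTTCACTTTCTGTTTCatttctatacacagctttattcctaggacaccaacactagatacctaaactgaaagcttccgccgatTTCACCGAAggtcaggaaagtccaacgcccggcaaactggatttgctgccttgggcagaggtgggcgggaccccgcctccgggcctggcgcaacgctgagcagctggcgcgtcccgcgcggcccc
LGALS9: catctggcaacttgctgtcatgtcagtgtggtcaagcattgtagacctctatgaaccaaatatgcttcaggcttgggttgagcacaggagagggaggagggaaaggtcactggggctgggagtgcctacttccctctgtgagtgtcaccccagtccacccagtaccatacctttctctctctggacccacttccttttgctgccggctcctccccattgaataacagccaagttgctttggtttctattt

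Motifs were searched on both strands in all 35116 promoter entries of the RefSeq table over the same 250 bases. The interferon regulatory factor element (GAAA, any 2 bases, GAAA) occurred in 3.02% of them, the gamma-activated site TTCNNNGAA in 6.57%, the AP-1 site TGANTCA in 6.57%, the kappa B site (GGG, any 3 bases, TTCC) in 5.67% and the forkhead core TAAACA in 11.0%. The CD274 sequence held 2 overlapping matches to the interferon regulatory factor element, read on the minus strand, at bases 208 to 199 and 202 to 193 before the start, and 1 gamma-activated site at bases 125 to 117. Neither the forkhead core nor the AP-1 and kappa B letters were found in it, and none of the 5 motifs was found in the LGALS9 sequence. These are matches of letters in a short window, and binding was not measured here. Of 8 members looked up 7 had an entry, PDCD1LG2 being the other, and only the CD274 entry held a match to any of the 5 motifs. IDO1 was not looked up.

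To ask which checkpoint ligands differ in FOXC1 KO cells, the 7 tested members were compared with edgeR. CD274 and PDCD1LG2 were higher in KO, IDO1 and LGALS9 were lower, and CD276, PVR and PVRL2 did not pass the call, which asked for more than a 1.3-fold change together with an adjusted p below 0.05. Thus 4 of 7 members (57.1%) were called, 2 in each direction, where 16.0% of all tested genes were called, 8.39% lower and 7.57% higher. On the adjusted p alone, 6 of 7 members passed, against 29.4% of all tested genes. The groups did not overlap for 4 of 7 members, against 41.3% of all tested genes. These shares describe members that were chosen with earlier results of these data known. The median log2 fold change over the 7 was -0.12, and that of all tested genes -0.00084. The PD-1 ligands moved one way while the tryptophan enzyme and the galectin moved the other way. Protein was not measured in these files.

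**Figure D1:**
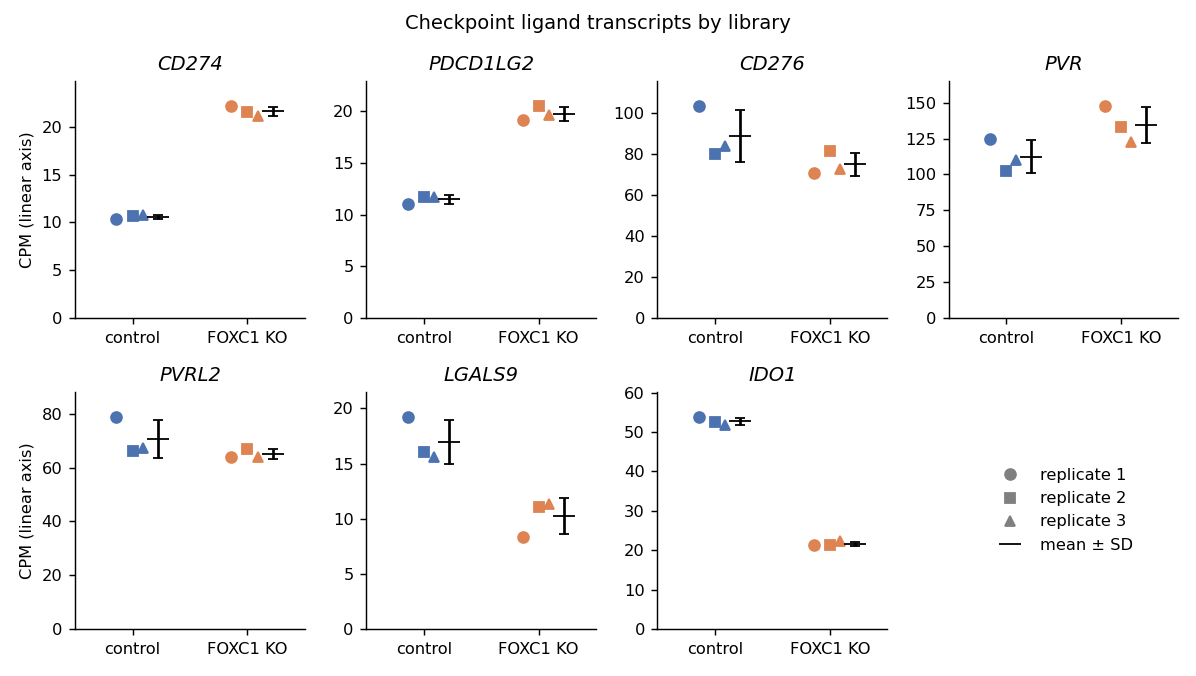
CPM of the 7 tested checkpoint ligands in each library on linear axes that start at 0, with control in blue, FOXC1 KO in orange, a marker shape for each replicate number, and bars for mean ± SD of 3 libraries. CD274 and PDCD1LG2 lie higher in all KO libraries, IDO1 and LGALS9 lie lower, and the groups overlap for CD276, PVR and PVRL2.

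**Figure D2:**
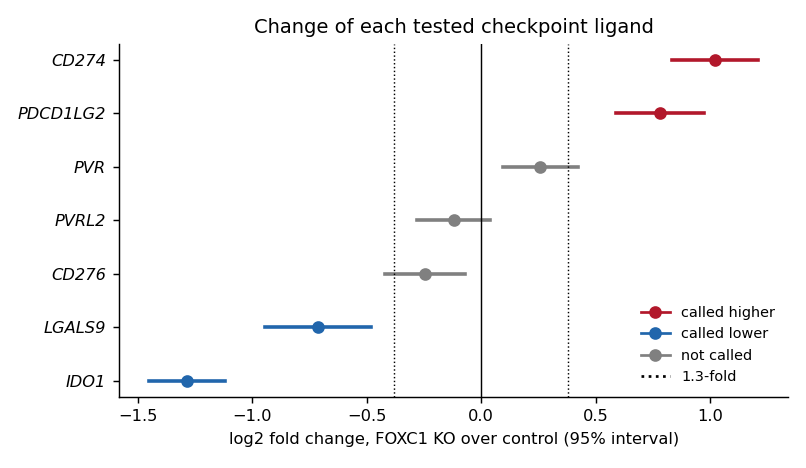
Log2 fold change of FOXC1 KO over control with 95% intervals from edgeR for the 7 tested members, ordered by size, with dotted lines at a 1.3-fold change. The intervals of CD274 and PDCD1LG2 lie above the upper line, those of IDO1 and LGALS9 below the lower line, and the interval of PVRL2 spans zero.

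CD274 (ENSG00000120217.9, chromosome 9, 5450503 to 5470566, plus strand, GRCh37) encodes PD-L1, which engages PD-1 on activated T cells. It had 233, 260 and 274 counts in control replicates 1 to 3 and 407, 544 and 496 in KO replicates 1 to 3. Scaled to depth these were 10.4, 10.7 and 10.8 CPM in control and 22.1, 21.6 and 21.1 CPM in KO. The control values lay within 1 CPM of each other, and the groups stood far apart. The level rose from 10.6 ± 0.196 to 21.6 ± 0.522 CPM (SD, n = 3), 2.03-fold, with a log2 fold change of 1.02 (SE 0.093, edgeR adjusted p 8.75e-10). Over 12 alternatives its log2 fold change stayed between 1.0 and 1.04.

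PDCD1LG2 (ENSG00000197646.6, chromosome 9, 5510531 to 5571282, plus strand) encodes PD-L2, the second ligand of PD-1, and starts 60.0 kb after the start of CD274. Its values were 11.0, 11.7 and 11.8 CPM in control (247, 286 and 299 counts) and 19.1, 20.5 and 19.6 CPM in KO (352, 516 and 462 counts). All KO values were higher than all control values. The level rose from 11.5 ± 0.417 to 19.7 ± 0.672 CPM (SD, n = 3), 1.72-fold, with a log2 fold change of 0.78 (SE 0.094, edgeR adjusted p 1.70e-07).

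The rises of the PD-1 ligands were set against each other next. Their 95% intervals overlapped (log2 fold change 0.83 to 1.21 for CD274 and 0.59 to 0.97 for PDCD1LG2), which does not test their difference. Within each library the ratio of CD274 to PDCD1LG2 counts, which does not depend on scaling, was 0.943, 0.909 and 0.917 in control and 1.16, 1.05 and 1.07 in KO. CD274 was thus the less counted of the pair in all control libraries and the more counted in all KO libraries. The log2 ratio was -0.12 ± 0.028 in control and 0.13 ± 0.071 in KO (SD, n = 3), a difference of 0.25, without overlap between the groups. The exact permutation test (two-sided) gave p 0.1, the smallest that 3 against 3 libraries allow, so it cannot decide whether the rises differ.

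To place this pair among its neighbours on 9p24, 12 tested genes whose starts lie within 1 Mb were taken from a list of 15 named genes. Whether the list holds every gene of the region was not checked. Among these 12, only SLC1A1, a glutamate transporter gene that starts 960.0 kb away, was called higher (log2 fold change 0.88, SE 0.13, edgeR adjusted p 7.52e-06). RLN2, a relaxin gene at low counts (11 to 30 per library), was called lower (-0.73, adjusted p 0.0490). The RLN2 call was lost in 9 of 11 alternatives, among them DESeq2 (adjusted p 0.232). The nearest tested genes of the list on either side of the pair were not called. C9orf46 (PLGRKT, a plasminogen receptor gene), which starts 12.6 kb from CD274 on the other strand, had a log2 fold change of 0.21 (95% interval 0.0037 to 0.42, adjusted p 0.119), and KIAA1432 (RIC1), 178.5 kb away, of 0.014 (95% interval -0.15 to 0.18). JAK2, the kinase gene 466.1 kb away that acts in interferon gamma signalling, had 0.18 (95% interval -0.026 to 0.39). The median over the 12 listed neighbours was 0.13, and 2 of 12 were called (16.7%), a share near the 16.0% of all tested genes.

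**Figure D3:**
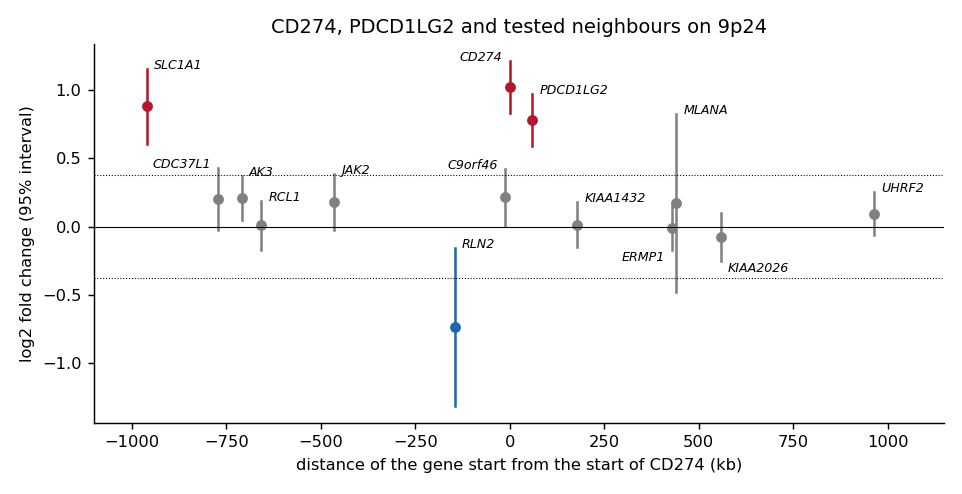
Log2 fold change with 95% interval for CD274, PDCD1LG2 and the 12 listed and tested neighbours on 9p24 against the distance of each gene start from the start of CD274 in kb, called higher in red, called lower in blue and not called in grey, with dotted lines at a 1.3-fold change. CD274 and PDCD1LG2 stand at 1.02 and 0.78, while C9orf46 and KIAA1432 on either side stand at 0.21 and 0.014.

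Genes known to raise or restrain CD274 transcription were examined next, from a list of 18, all tested. MYC rose, STAT2 and SOCS3 fell, and the other 15 were not called, so that 16.7% were called, a share near the 16.0% of all tested genes. MYC, a transcription factor gene, went from 49.6, 45.9 and 47.2 CPM in control to 81.2, 79.4 and 77.4 CPM in KO (log2 fold change 0.74, SE 0.074, edgeR adjusted p 5.36e-09). STAT2, a transducer of type I interferon signals, had 269.8, 249.5 and 265.9 CPM in control and 189.8, 197.7 and 178.5 CPM in KO (log2 fold change -0.47, SE 0.069, adjusted p 4.45e-06). IRF1, which binds interferon regulatory factor elements, had 0.053 (95% interval -0.096 to 0.20, adjusted p 0.631), and the receptor genes IFNGR1 and IFNGR2 had 0.021 and 0.017. CD274 and PDCD1LG2 were higher in libraries in which none of these interferon gamma pathway genes was called higher. The part of this pathway in their rise was not tested. SOCS3, a feedback inhibitor of JAK kinases, had a log2 fold change of -0.39 (adjusted p 0.00537), which fell short of the fold threshold without control replicate 1 (-0.38), without control replicate 3 (-0.36) and without KO replicate 2 (-0.36).

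Of 14 tested genes known to act on PD-L1 protein, 2 fell and none was called higher (14.3% called), a share near the 16.0% of all tested genes. CMTM6, which keeps PD-L1 on the cell surface, was at 180 ± 14.8 CPM in control and 190 ± 15.5 CPM in KO (SD, n = 3; log2 fold change 0.074, edgeR adjusted p 0.499). HIP1R, which directs PD-L1 to lysosomes, fell from 21.2 ± 3.35 to 12.8 ± 0.616 CPM (log2 fold change -0.72, SE 0.11, adjusted p 4.13e-06), and B3GNT3, a glycosyltransferase gene, fell from 2.62 ± 0.511 to 1.25 ± 0.331 CPM (-1.06, SE 0.22, adjusted p 0.000408).

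IDO1 (ENSG00000131203.8, chromosome 8, 39759794 to 39786309, plus strand) was the member that fell most. It had 1207, 1281 and 1320 counts in control and 392, 539 and 524 in KO, or 53.8, 52.5 and 51.9 CPM against 21.3, 21.4 and 22.3 CPM. The groups lay far apart, with little spread inside either. The level fell from 52.7 ± 0.984 to 21.6 ± 0.537 CPM (SD, n = 3), 2.43-fold, with a log2 fold change of -1.28 (SE 0.080, edgeR adjusted p 2.72e-13), and IDO1 ranked 50 by p among all tested genes. Over 12 alternatives the log2 fold change stayed between -1.31 and -1.27. IDO1 and CD274 are both known interferon gamma targets, and they changed in opposite directions here. What led to either change was not tested.

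The other genes of tryptophan and kynurenine metabolism were taken from a list of 19, of which 16 were tested. Of these, 4 rose and none was called lower (25.0% called, against 16.0% of all tested genes in either direction and 7.57% higher). KYNU, which encodes kynureninase, the enzyme that cleaves kynurenine and its hydroxylated form, had 53, 80 and 43 counts in control and 241, 336 and 389 in KO. This corresponded to 2.36, 3.28 and 1.69 CPM against 13.1, 13.3 and 16.5 CPM, 5.88-fold (log2 fold change 2.56, SE 0.16, edgeR adjusted p 1.56e-13). TDO2, the other gene of tryptophan dioxygenation that was tested, was much lower in counts (8, 11 and 15 in control, 19, 33 and 22 in KO; log2 fold change 1.22, SE 0.30, adjusted p 0.00257). CCBL2 (KYAT3), a kynurenine aminotransferase gene that shares 359 exonic bases with RBMXL1 on the same strand, was at 26.4, 26.3 and 24.1 CPM in control and 35.2, 38.5 and 40.2 CPM in KO (log2 fold change 0.57, SE 0.084, adjusted p 4.61e-06). CYP1B1, a target of the aryl hydrocarbon receptor, had 27, 41 and 45 counts in control and 51, 61 and 68 in KO (log2 fold change 0.78, SE 0.19, adjusted p 0.00251). AHR, the receptor gene, did not pass (-0.063, adjusted p 0.593), nor did CYP1A1 (-0.52, adjusted p 0.192), another of its targets. IDO2, a relative of IDO1 next to it on chromosome 8, had 1 to 4 counts per library and was not tested. The median log2 fold change of the 16 was 0.013.

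**Figure D4:**
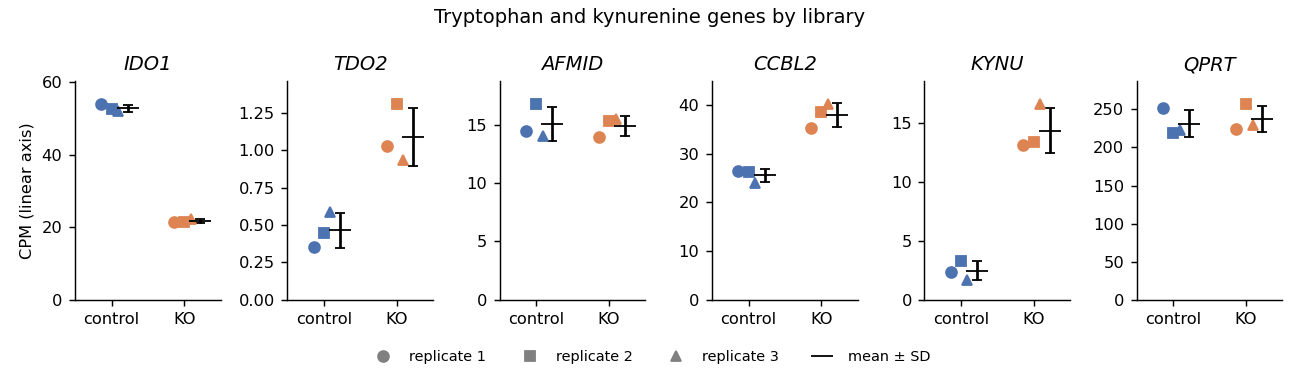
CPM of IDO1, TDO2, AFMID, CCBL2, KYNU and QPRT in each library on linear axes that start at 0, with control in blue, FOXC1 KO in orange, a marker shape for each replicate number, and bars for mean ± SD of 3 libraries. IDO1 lies lower in all KO libraries, TDO2, CCBL2 and KYNU lie higher, and the groups overlap for AFMID and QPRT.

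LGALS9 (ENSG00000168961.12, chromosome 17, 25956824 to 25976586, plus strand) encodes galectin-9, a lectin that binds HAVCR2 (TIM-3). It had 431, 393 and 396 counts in control and 154, 279 and 266 in KO, which is 19.2, 16.1 and 15.6 CPM against 8.37, 11.1 and 11.3 CPM. All KO values lay under all control values, with replicate 1 highest in control and lowest in KO. The level fell from 17.0 ± 1.97 to 10.2 ± 1.63 CPM (SD, n = 3), 1.64-fold, with a log2 fold change of -0.71 (SE 0.11, edgeR adjusted p 1.43e-05). Leaving out any 1 library gave -0.79 to -0.60, and the gene stayed called each time. LGALS9B and LGALS9C, near-identical copies of LGALS9 on the same chromosome, had 0 to 4 counts per library, so reads assigned to them could change the LGALS9 level little, but how reads that match all 3 copies were treated is not given. Other galectin genes moved in both directions. LGALS3, a galectin that binds LAG3, fell from 94.1 ± 2.66 to 67.1 ± 1.78 CPM (log2 fold change -0.49, SE 0.071, adjusted p 4.38e-06), and LGALS1, a galectin that induces T cell death, rose from 731 ± 71.5 to 1012 ± 37.5 CPM (0.47, SE 0.075, adjusted p 1.66e-05).

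CD276 (ENSG00000103855.13, chromosome 15, 73976307 to 74006855, plus strand) encodes B7-H3, for which no single inhibitory receptor is settled. Its values were 103, 79.7 and 83.6 CPM in control and 70.7, 81.4 and 72.7 CPM in KO. The groups overlapped, since KO replicate 2 lay above control replicate 2, and control replicate 1 stood above the others. The log2 fold change was -0.24 (SE 0.086, 95% interval -0.42 to -0.069, edgeR adjusted p 0.0314), and the difference, 1.18-fold, was smaller than the call required. Adjusted p rose to 0.186 without control replicate 1, where the log2 fold change was -0.13. It was 0.122 without KO replicate 1, 0.0850 without KO replicate 3 and 0.0558 with DESeq2, at log2 fold changes of -0.21, -0.23 and -0.24. The direction was lower in all 12 alternatives.

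PVR (ENSG00000073008.10, chromosome 19, 45147098 to 45169430, plus strand) encodes CD155, which TIGIT and CD96 bind as well as the activating receptor CD226. It was at 125, 102 and 110 CPM in control and 147, 133 and 123 CPM in KO. The highest control value, in replicate 1, lay above the lowest KO value, in replicate 3. Its log2 fold change of 0.26 (SE 0.080, 95% interval 0.095 to 0.42, edgeR adjusted p 0.0144) was under the fold threshold, and adjusted p became 0.106 without control replicate 2 and 0.124 without KO replicate 1. PVR shares 121 exonic bases with CEACAM19, which had at most 61 counts in a library.

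PVRL2 (ENSG00000130202.5, chromosome 19, 45349432 to 45392480, plus strand) encodes nectin-2, bound by PVRIG and TIGIT, and starts 202.3 kb from PVR. It was at 78.8, 66.0 and 67.2 CPM in control and 64.0, 67.0 and 64.1 CPM in KO, with overlapping groups. The log2 fold change was -0.12 (SE 0.078, edgeR adjusted p 0.270), and its 95% interval from -0.28 to 0.041 contains no 1.3-fold change. Within libraries the ratio of PVR to PVRL2 counts was 1.58, 1.55 and 1.64 in control and 2.30, 1.99 and 1.92 in KO. The log2 ratio was 0.67 ± 0.041 in control and 1.04 ± 0.14 in KO (SD, n = 3), without overlap between the groups (difference 0.37, exact permutation test, two-sided, p 0.1, the smallest possible). Of 8 tested genes from a list of neighbours on 19q13, 3 were called higher and none lower (37.5%, against 7.57% of all tested genes called higher). They were RELB, a gene of NF-kappa B signalling (log2 fold change 0.69, SE 0.095, adjusted p 1.73e-06), and the apolipoprotein genes APOC1 (0.71, SE 0.12, adjusted p 3.14e-05) and APOE (0.95, adjusted p 0.0338, called in 5 of 11 alternatives). APOE had only 7, 12 and 8 counts in control and 12, 19 and 18 in KO.

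CD80 (ENSG00000121594.7, chromosome 3, 119243140 to 119278461, minus strand) and VTCN1 (ENSG00000134258.12, chromosome 1, 117686209 to 117753582, minus strand) were not detectable above the floor. CD80, a ligand of CD28 and CTLA4 on antigen-presenting cells, had 1 count in control replicate 2 and 1 in KO replicate 2, and VTCN1 had 1 count in KO replicate 3. The floor of 3 counts corresponds to 0.118 to 0.163 CPM per library, covers counting error only, and leaves no fold change to be given.

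The levels of the members were then set side by side per kilobase of the canonical transcript, since counts also grow with transcript length. In control libraries IDO1 (28.5 ± 0.532), CD276 (27.0 ± 3.81) and PVRL2 (26.3 ± 2.62 CPM per kilobase, SD, n = 3) were highest, with overlapping values. PVR (19.4 ± 1.96), LGALS9 (9.83 ± 1.14), PDCD1LG2 (4.72 ± 0.172) and CD274 (2.92 ± 0.0539 CPM per kilobase) followed, each without overlap with the next. In KO libraries PVRL2 (24.2 ± 0.651), PVR (23.2 ± 2.13) and CD276 (22.7 ± 1.73) were highest and overlapped, then came IDO1 (11.7 ± 0.290), PDCD1LG2 (8.12 ± 0.276), LGALS9 (5.94 ± 0.945) and CD274 (5.94 ± 0.143 CPM per kilobase), of which only the last pair overlapped. PD-L1 transcript was thus the lowest of the 7 in control and level with LGALS9 in KO. This order rests on the length taken. Per kilobase of all annotated exons, a length chosen after seeing the data, PVRL2 (18.9), CD276 (16.2) and IDO1 (15.1) led in control, followed by PVR (10.8), PDCD1LG2 (4.72), LGALS9 (2.97) and CD274 (2.58). In KO the same measure gave PVRL2 17.4, CD276 13.7, PVR 12.9, PDCD1LG2 8.12, IDO1 6.21, CD274 5.25 and LGALS9 1.79.

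Other ligands that restrain or engage lymphocytes were compared from a list of 22, of which 21 matched the table and 15 were tested. Here 4 rose and 3 fell (46.7% called, against 16.0% of all tested genes), and the median log2 fold change was 0.17. PVRL1 (nectin-1) rose from 4.19, 3.69 and 2.91 CPM in control to 5.98, 7.26 and 7.35 CPM in KO (log2 fold change 0.95, SE 0.14, edgeR adjusted p 6.89e-06). C10orf54 (VISTA), an inhibitory relative of the B7 family, was at 57.6, 45.0 and 44.1 CPM in control and 69.0, 75.3 and 67.6 CPM in KO (0.53, SE 0.088, adjusted p 2.68e-05). CEACAM1, an adhesion molecule that inhibits T and NK cells, fell from 10.5, 8.07 and 11.9 CPM to 4.51, 3.65 and 4.38 CPM (-1.29, SE 0.14, adjusted p 2.76e-08). CD47, the signal that restrains macrophages, was at 137 ± 7.60 and 139 ± 4.02 CPM and did not pass (log2 fold change 0.022, adjusted p 0.851). The butyrophilins BTN2A1, BTN2A2, BTN3A1, BTN3A2 and BTN3A3 had log2 fold changes from 0.14 to 0.34 and none was called. On the adjusted p alone, BTN3A2 (0.34, adjusted p 0.00031) and BTN3A3 (0.21, adjusted p 0.0381) passed, and BTN2A1, BTN2A2 and BTN3A1 did not.

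Ligands that activate NK and T cells were compared as the counterpart. Of 12, 11 were tested, 3 fell and 1 rose (36.4% called, against 16.0% of all tested genes). NCR3LG1 (B7-H6), a B7 family ligand of the NK receptor NKp30, had 1746, 1865 and 2022 counts in control and 874, 1122 and 904 in KO. It fell from 77.9 ± 1.55 to 43.5 ± 4.63 CPM (log2 fold change -0.84, SE 0.080, edgeR adjusted p 2.10e-09). CLEC2B (-0.40, adjusted p 9.58e-05) and ULBP1, a ligand of NKG2D (-0.49, adjusted p 0.00259), were lower as well, the first falling short of the fold threshold without control replicate 3 (-0.36). ICAM1, the adhesion ligand of LFA-1, rose from 41.3 ± 4.79 to 65.7 ± 4.20 CPM (0.67, SE 0.084, adjusted p 3.79e-07). The other NKG2D ligands that were tested, MICA, MICB, ULBP2, ULBP3, RAET1E and RAET1G, were not called (log2 fold changes from -0.017 to 0.30). Among them only MICA, which was higher in KO (0.30, adjusted p 0.00263), passed on the adjusted p alone.

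Extracellular adenosine, which also restrains T cells, was represented by 8 tested genes, of which 2 fell and none was called higher (25.0% called, against 16.0% of all tested genes). NT5E (CD73), which makes adenosine from AMP, was at 101 ± 4.64 and 106 ± 7.86 CPM and did not pass (log2 fold change 0.059, edgeR adjusted p 0.591). DPP4, which anchors adenosine deaminase to the cell surface, fell from 42.9 ± 0.921 to 29.0 ± 1.48 CPM (-0.57, SE 0.080, adjusted p 2.75e-06), and the nucleoside transporter gene SLC29A2 had -0.41 (adjusted p 0.00743), which fell short of the fold threshold without control replicate 1 (-0.30), without KO replicate 1 (-0.38) and without KO replicate 3 (-0.37). The receptors of the checkpoint and other ligands above, a list of 14 that holds no adenosine receptor, were mostly at or near zero. Of 14, 4 were tested. SIRPA, the receptor of CD47, was called higher (0.40, adjusted p 0.00197), a call lost without control replicate 2 (0.34), control replicate 3 (0.36) or KO replicate 1 (0.33). HAVCR2, at 16, 13 and 12 counts in control and 8, 4 and 0 in KO, was called lower (-1.63, adjusted p 0.0178), but not with DESeq2 (adjusted p 0.111), without control replicate 1 (0.0553), without KO replicate 2 (0.0761) or without KO replicate 3 (0.124). PDCD1 and ICOS had 0 counts in all libraries.

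**Figure D5:**
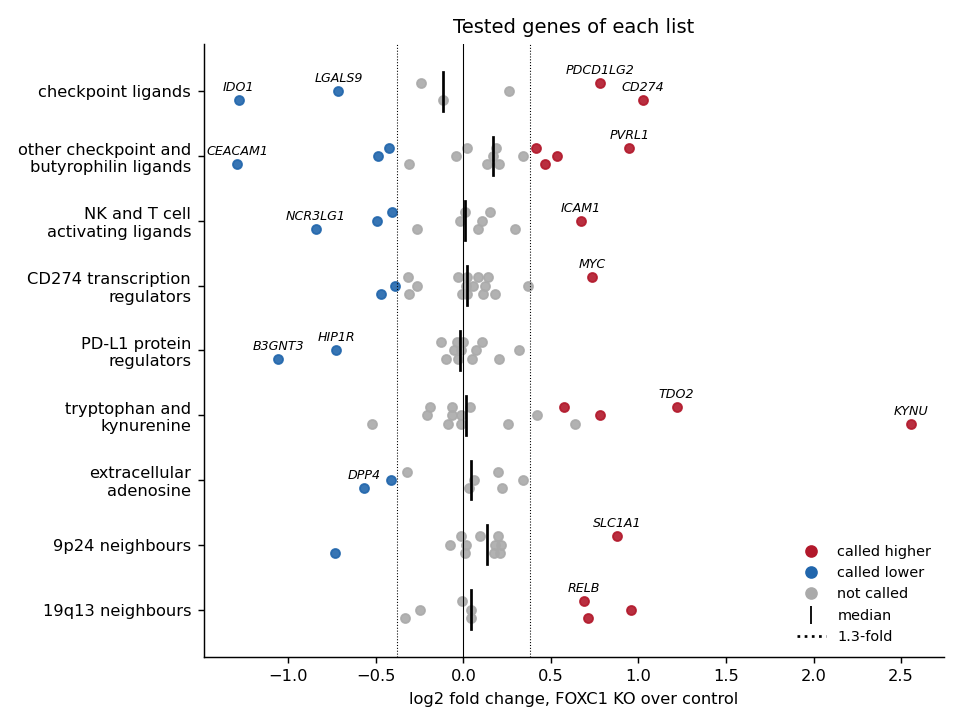
Log2 fold change of FOXC1 KO over control for every tested gene of the checkpoint ligands and of 8 related lists, 1 point for each gene, spread vertically for legibility, with called genes in red (higher) or blue (lower), black bars at list medians and dotted lines at a 1.3-fold change. CD274 (1.02) and PDCD1LG2 (0.78) stand to the right, IDO1 (-1.28) and LGALS9 (-0.71) to the left, and KYNU (2.56) is the farthest point from zero.

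Some epithelial and mesenchymal markers differed between the same libraries. Of 7 tested urothelial or epithelial markers 6 were lower, against 8.39% of all tested genes, among them KRT19 (log2 fold change -0.70, edgeR adjusted p 8.06e-08), KRT8 (-0.60, adjusted p 3.11e-06) and PPARG (-0.45, adjusted p 1.04e-05). KRT7 was not called (-0.065, adjusted p 0.575). Of 7 mesenchymal markers 2 were called higher, against 7.57% of all tested genes, SNAI2 (0.61, adjusted p 4.89e-07) and ZEB1 (0.57, adjusted p 3.64e-06), and none was called lower. VIM (0.30, adjusted p 0.00137), FN1 (0.0084) and TWIST1 (0.032) were not called, nor were CDH2 (-0.11) and ZEB2 (-0.15), which lay below zero. In bulk samples a shift in the kinds of cells and a change within each cell cannot be told apart, and the part of these markers in the changes of the ligands was not tested.

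The genes whose profile over the 6 libraries lay closest to each called member were listed, as a description, among the 13616 tested genes that averaged 1 CPM or more. Closeness was the Euclidean distance between log2 CPM values after each gene's mean had been removed. CD274 lay closest to ADTRP (0.0799), CRISPLD2 (0.0887) and CTDSPL (0.0934), whose log2 fold changes were 1.10, 1.05 and 0.94. PDCD1LG2 lay closest to WWC1 (0.106), BMERB1 (0.129) and SH3RF2 (0.137). IDO1 lay closest to ABCG2 (0.0898), EMP2 (0.0953) and AQP11 (0.121), which fell by 1.21, 1.31 and 1.32 on the log2 scale. LGALS9 lay closest to a gene given as ENSG00000110347.7 (0.141), CA11 (0.151) and IGFBP6 (0.159). The distances rest mostly on the difference between the groups, which these genes share by construction.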

How the data were processed

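The deposited values were unnormalised counts of reads by gene. The authors had aligned the read pairs with STAR to hg19 and counted them over GENCODE genes with featureCounts (Subread). Tool versions and the settings for strand and for reads that match several places are not given in the sources used here, so counts of overlapping or near-identical genes are uncertain. Replicates were not pooled, all rows named a gene, and 0 columns belonged to other samples. Groups came from the sample titles.

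Symbols, coordinates and lengths came from a GENCODE annotation mapped to GRCh37, the assembly of hg19 (96.05% of 57820 rows matched), and 179 of 181 list entries matched. Promoters came from RefSeq (GRCh38.p14), a build used for nothing else. Low counts were removed by filterByExpr, and edgeR 4.0.16 (R 4.3.3) was then used with TMM scaling and its robust quasi-likelihood F test, group being the only term, with Benjamini-Hochberg adjustment over all 15647 genes. The thresholds, more than a 1.3-fold change and an adjusted p below 0.05, are those of the study's methods, which used DESeq2. SEs were derived from the F statistic. CPM used TMM-scaled totals. The fit was tested on simulated counts.

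Alternatives were DESeq2 1.42.0, size factors by RLE, totals without scaling, no filter, a mean of at least 50 counts, no fold threshold, the replicate number as a block and leaving out each library. The genes named are all members, FOXC1, up to 5 called genes of each list with the smallest p, and the 3 closest profiles; others serve as values of a list or were chosen after their values were seen. The members and lists were chosen with earlier results of these data known. Some genes of the lists are not reported here.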

Additional observations from a re-analysis of the deposited data

How the results depend on the processing

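The calls of CD274, PDCD1LG2, IDO1 and LGALS9 held in all 12 alternatives to the fit, and CD276, PVR and PVRL2 were called in none, so the checkpoint ligands kept 2 genes lower and 2 higher, except that 3 and 3 passed with no fold threshold. CD80 and VTCN1 had too few counts for a fold change in any setting. No log2 fold change of a tested member, of FOXC1 or of a called gene named by the rule turned its direction, and those of genes that were not called were not recomputed. With no fold threshold, 2233 of all tested genes were lower and 2372 higher (1313 and 1184 with it), 2 activating ligands were higher (1), 4 regulators of CD274 transcription lower (2), 1 PD-L1 protein regulator higher (0), 1 kynurenine gene lower (0), 1 adenosine gene higher (0), 2 neighbours on 9p24 higher (1) and 1 neighbour on 19q13 lower (0), since fewer conditions were asked. With a mean of at least 50 counts, which removes genes, 0 receptors, 1 PD-L1 protein regulator (2) and 0 neighbours on 9p24 were lower and 2 kynurenine genes higher (4). With DESeq2, 0 receptors and 0 neighbours on 9p24 were lower, and with no filter 0 of these neighbours, and the cause was not tested.

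Leaving out 1 library at a time gave 0 to 1 receptors lower and 0 to 1 higher, 1 to 3 regulators of CD274 lower and 1 to 2 higher, 1 to 3 adenosine genes lower and 0 to 1 higher, 0 neighbours on 9p24 lower, and 0 to 1 neighbours on 19q13 lower. For all tested genes it gave 1201 to 1408 lower and 1124 to 1231 higher.

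Samples of the 2 groups share replicate numbers, but same-numbered libraries did not deviate together (correlations of -0.027, -0.072 and 0.050), so the numbers were not taken as pairs. With the replicate number as a block, CD274 had a log2 fold change of 1.02 and IDO1 of -1.28, and 0 neighbours on 9p24 were lower. The within-library ratios had an exact permutation p of 0.25 as pairs, the smallest that 3 pairs allow. Depth limits CD80, VTCN1, HAVCR2, CD226, PVRIG, CD8A, TDO2, RLN2 and APOE, each under 40 counts per library.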
